A study of Mus musculus with 35 samples.

Results

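The 3 mammalian TGF-beta ligand genes, Tgfb1, Tgfb2 and Tgfb3, and the 4 latent TGF-beta binding protein genes, Ltbp1, Ltbp2, Ltbp3 and Ltbp4, were followed across the suprarenal aortas of ApoE-/- mice given angiotensin II or saline. They were taken by gene name, 7 of 27597 gene names on the array, and had 9 of its 41174 probes. All 9 probes passed the filter on dim probes. RNA was measured on 35 two-colour arrays, 1 aorta per array, against a universal mouse reference RNA on every array. All mice were male and ApoE-/-, and 12 to 14 weeks old when a minipump was implanted under the skin. The groups were angiotensin II (Ang II from here on), at 1000 ng/kg/min, for 7 days without dissection (4 aortas), Ang II with a dissected aorta at 7 days (3), Ang II for 14 days (5) and for 28 days (6), both labelled aneurysm. Saline from the same kind of pump was given for 7 days (6), 14 days (6) and 28 days (5). The whole suprarenal segment was homogenised, so a lower value can stand for fewer cells of a type or for less RNA per cell, and these cannot be told apart. The ApoE deletion was carried by every group, saline included, so its own effect is not measured.

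TGF-beta is secreted in a latent form. The cleaved propeptide stays wrapped around the growth factor, and in most cells a latent TGF-beta binding protein is joined to the propeptide and anchors the complex to fibrillin microfibrils and fibronectin in the matrix. Integrins, proteases and thrombospondin can release the growth factor, which then signals through its receptors and Smad proteins. The arterial wall is rich in these microfibrils, and mutations in several genes of the system cause inherited aneurysm in humans.

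A probe's value is the log2 ratio of aorta to reference RNA, and only differences between aortas were read from it. A gene was called at an adjusted p of 0.05 in limma, with Benjamini-Hochberg adjustment over 18671 genes, and 1 probe stood for each gene. These 7 probes were well above background on all 35 arrays, and none was saturated. In the aorta channel 45% to 84.8% of an array's spots (median 57.1%) passed the scanner's test against background. The highest share was on Ang II 14 days replicate 4 and the lowest on saline 28 days replicate 5. The dissected aortas stood low, at 48.7%, 50.5% and 47.2%. Non-dissected Ang II aortas of 7 days held 52.4% to 58.4%, and saline aortas of 7 days 50.1% to 62.2%. The arrays were scanned on 2 days, and all 3 dissected aortas were scanned on the second. The 10 smooth muscle markers were measured in every group, and all 10 were well above background on every array except in the dissected group, where 9 were.

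Of the 9 probes, 2 that lie in coding sequence are shown, and their letters say which piece of the message was read. Whether the others lie in coding sequence was not determined. Coordinates are those of the array files, mouse build mm8. The Tgfb1 probe, at chr7:25413618-25413677, lies in the part that encodes the mature growth factor, and it was printed 10 times on each array. The second Ltbp3 probe, at chr19:5751763-5751822, lies in the part that encodes an EGF-like repeat, the module that makes up much of these proteins. Capitals mark the whole codons of the reading frame, 5′ to 3′.
Tgfb1: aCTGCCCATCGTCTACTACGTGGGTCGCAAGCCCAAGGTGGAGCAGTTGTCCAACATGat
Ltbp3, second probe: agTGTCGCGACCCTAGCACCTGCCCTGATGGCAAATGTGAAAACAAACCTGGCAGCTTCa
The other probes lie on the same build at chr1:188324443-188324502 for Tgfb2, chr12:86945957-86946016 for Tgfb3 and chr12:85672971-85673030 for Ltbp2. The brighter Ltbp1 probe is at chr17:75295778-75295911 and the second at chr17:75130373-75130432. The brighter Ltbp3 probe is at chr19:5758289-5758346, and that of Ltbp4 is at chr7:27013916-27013975. No annotation of mm8 was used here, so exons and introns are not given.
The 10 Tgfb1 spots of an array agreed closely, with a standard deviation between them of 0.0589 to 0.296 log2 units over the arrays and a median of 0.112.

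Stretches of 250 bases before the RefSeq start are shown for Tgfb1 and Ltbp2, the genes called in dissected aortas as well, and for Tgfb2, the ligand with the largest change at 7 days. They come from RefSeq on build GRCm38.p6, whose coordinates differ from those of mm8. RefSeq promoters were matched for 6 of the 7 genes. Capitals mark matches, on either strand, to the TATA box TATAAA, the AP-1 motif TGACTCA, the cyclic AMP response element TGACGTCA or the GC box GGGCGG.
Tgfb1, chr7:25686752-25687001, plus strand: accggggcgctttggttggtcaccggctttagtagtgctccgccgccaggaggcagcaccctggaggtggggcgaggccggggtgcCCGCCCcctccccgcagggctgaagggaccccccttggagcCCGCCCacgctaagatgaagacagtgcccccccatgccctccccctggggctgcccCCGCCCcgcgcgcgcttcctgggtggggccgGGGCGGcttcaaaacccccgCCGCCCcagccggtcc
Tgfb2, chr1:186705990-186706239, minus strand: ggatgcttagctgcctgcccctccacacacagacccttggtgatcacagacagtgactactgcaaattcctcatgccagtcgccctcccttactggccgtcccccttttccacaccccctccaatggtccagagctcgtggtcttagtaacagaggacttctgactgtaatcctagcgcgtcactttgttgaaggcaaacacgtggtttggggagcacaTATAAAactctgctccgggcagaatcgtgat
Ltbp2, chr12:84876492-84876741, minus strand: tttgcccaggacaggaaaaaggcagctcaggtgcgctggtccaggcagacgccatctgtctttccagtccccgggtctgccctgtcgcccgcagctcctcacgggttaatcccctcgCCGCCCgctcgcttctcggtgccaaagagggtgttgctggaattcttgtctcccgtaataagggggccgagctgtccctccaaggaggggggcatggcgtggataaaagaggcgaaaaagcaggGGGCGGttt
The Tgfb1 stretch is 75.2% G and C and holds GC boxes, the Ltbp2 stretch is 61.6% and holds GC boxes, and the Tgfb2 stretch is 53.6% and holds a TATA box. Over 32851 promoters of this length the median was 52.4%, and 32.7% held GGGCGG, 12.4% TATAAA, 4.46% TGACTCA and 1.55% TGACGTCA. None of these 3 stretches held TGACTCA or TGACGTCA. These are matches of letters and were not set against any binding data.

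After 7 days of Ang II without dissection, all 3 ligands and 2 of the 4 binding proteins rose. Ltbp2 rose most, 4.70-fold, followed by Tgfb2 at 3.02-fold, Tgfb3 at 2.49-fold, Ltbp3 at 2.10-fold and Tgfb1 at 1.80-fold. Ltbp1 and Ltbp4 did not pass the test. The 5 of 7 called higher stand beside a background of 14.5% of all genes called higher and 12.6% called lower in this comparison. The median log2 change of the 7 was 1.07, against 0 over all genes tested.

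Tgfb1 encodes the ligand that platelets, macrophages and many other cells make. It was measured at 0.62, 0.48, 0.13 and 0.38 in the Ang II aortas at 7 days, against a lowest value of -0.64, a median of -0.45 and a highest of -0.31 in the 6 saline aortas. Every Ang II aorta lay above every saline aorta, as it did for 12.3% of all genes. The log2 change was 0.85 with a standard error of 0.144 (limma, adjusted p = 9.33e-05). Within the first scan day it was 0.85 (adjusted p = 0.00141), and within the second, with 1 Ang II aorta, it was 0.66 (adjusted p = 0.272). Leaving out any 1 array moved it between 0.77 and 0.94 without losing the call, whereas with median centring in place of loess it was 0.65 and not called (adjusted p = 0.0731).

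Tgfb2 encodes the ligand with a large part in the development of the heart and vessels. Its values were 1.80, 1.52, 1.53 and 1.19 in Ang II aortas at 7 days, against -0.87 to 0.75, median -0.10, in saline aortas. The groups did not overlap, and the change was 1.59 with a standard error of 0.405 (limma, adjusted p = 0.0045). The saline aortas fell into separate ranges by scan day, at 0.75, 0.59 and 0.53 on the first and -0.75, -0.87 and -0.74 on the second. Within the first scan day the change was 0.88 (adjusted p = 0.257) and within the second 2.32 (adjusted p = 0.0245), while with scan day as a block the call held.

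Tgfb3 encodes the third ligand, known for its part in closure of the palate. It stood at 2.58, 3.45, 2.86 and 3.05 in Ang II aortas at 7 days, against 0.95 to 3.19 with a median of 1.04 in saline aortas. The groups overlapped, because saline replicates 1 and 3, both scanned on the first day, reached 3.19 and 2.81. The change of 1.32 had a standard error of 0.492 (limma, adjusted p = 0.0451). That call was lost when any of 8 of the 10 arrays was left out, with an adjusted p between 0.0621 and 0.133, and held only without saline replicate 1 or 3. It was also lost with scan day as a block (1.31, adjusted p = 0.0544), and within the first scan day the change was 0.65.

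**Figure D1:**
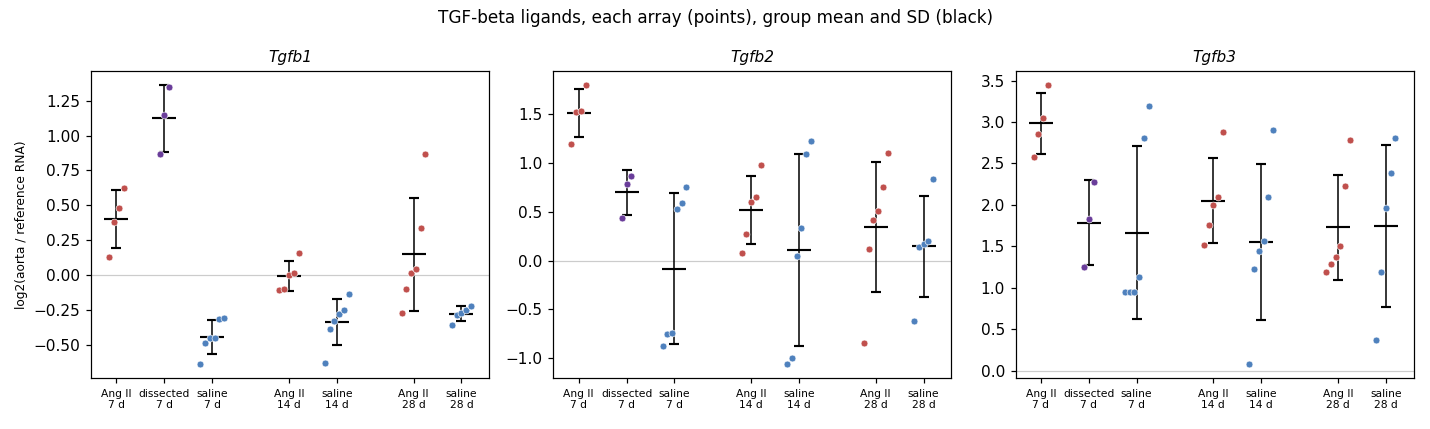
Log2 ratio of aorta to reference RNA for the 3 ligand genes in each aorta (points), with group mean and standard deviation in black, by treatment and days. Tgfb1 was highest in the 3 dissected aortas, between 0.87 and 1.35, whereas Tgfb2 and Tgfb3 had their highest group means in non-dissected Ang II aortas at 7 days, at 1.51 and 2.98.

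Ltbp2 encodes the binding protein that does not bind latent TGF-beta and instead takes part in microfibril assembly. Its values were 2.22, 2.37, 1.78 and 1.21 in Ang II aortas at 7 days, against -1.21 to 0.41, median -0.26, in saline aortas. The lowest Ang II aorta lay 0.80 log2 units above the highest saline aorta, and the change was 2.23 with a standard error of 0.348 (limma, adjusted p = 3.04e-05). It was 1.98 within the first scan day (adjusted p = 0.00328) and 2.41 within the second (adjusted p = 0.116).

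Ltbp3 encodes a binding protein that carries latent TGF-beta and whose loss in mice gives skeletal defects. By its brighter probe it stood at 0.76, 1.15, 0.44 and 0.78 in Ang II aortas at 7 days, against -0.92 to 0.41, median -0.41, in saline aortas. These values did not overlap, and the change was 1.07 with a standard error of 0.271 (limma, adjusted p = 0.00431). Within the first scan day it was 0.76 (adjusted p = 0.0817) and within the second 1.15 (adjusted p = 0.224).

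The second Ltbp3 probe, the one shown above, gave a smaller change. Its values were 0.00, 0.17, -0.53 and -0.65 in Ang II aortas at 7 days, against -1.34 to -0.30 with a median of -0.71 in saline aortas. Here the groups overlapped, and the change of 0.50, with a standard error of 0.244, was not called (limma over 27825 probes, of which 25.1% were called, adjusted p = 0.127). Both probes moved upward, and they differed on whether the test was passed.

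Ltbp1 encodes the binding protein first found on latent TGF-beta from platelets. It stood at 0.68, 0.67, 0.64 and 0.92 in Ang II aortas at 7 days, a narrow range inside the -1.06 to 0.93, median -0.10, of the saline aortas. The change of 0.79 had a standard error of 0.531 (limma, adjusted p = 0.276). The saline aortas of the first scan day held 0.81, 0.35 and 0.93, and those of the second -0.54, -1.06 and -0.89. Its second probe was well above background on 26 of 35 arrays and on 0 of the 3 dissected aortas, and its change at 7 days was 0.17 (adjusted p = 0.538).

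Ltbp4 encodes the binding protein tied to elastic fibre assembly. Its values were 2.09, 1.56, 1.22 and 1.51 in Ang II aortas at 7 days, against 0.43 to 2.39 with a median of 1.46 in saline aortas. They lay within the saline range, and the change of 0.17 had a 95% confidence interval from -0.61 to 0.96 (limma, adjusted p = 0.787).

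**Figure D2:**
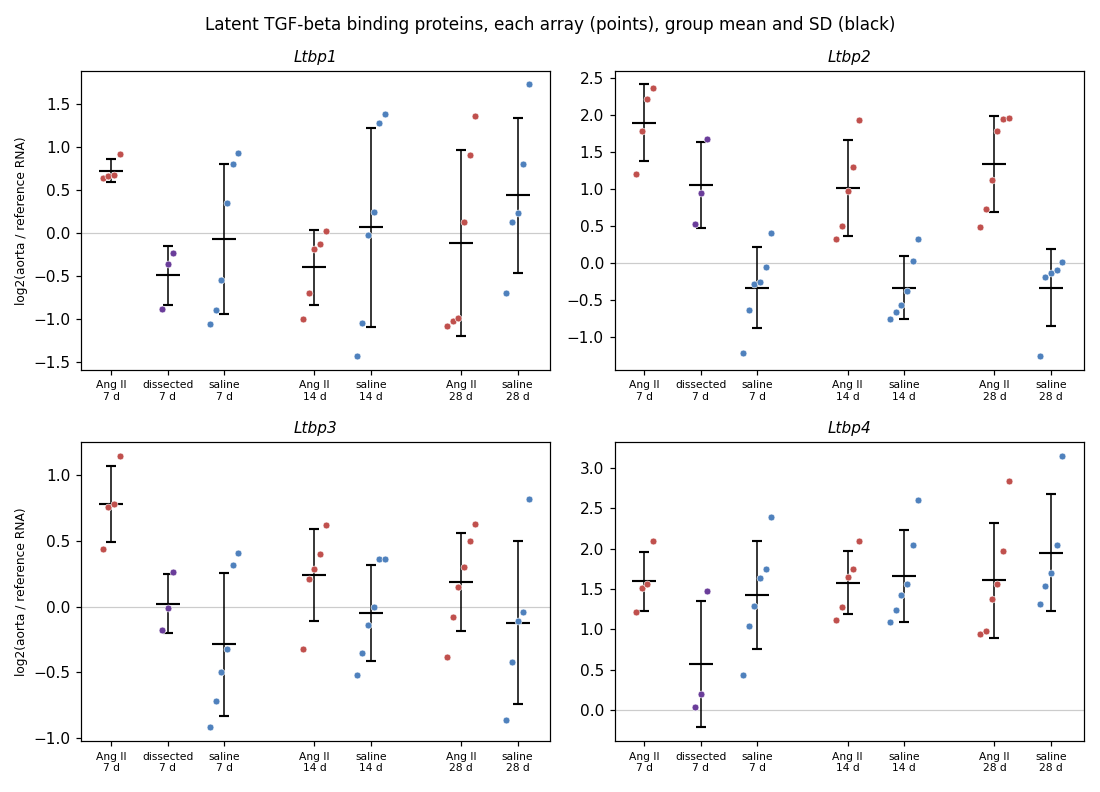
Log2 ratio of aorta to reference RNA for the 4 binding protein genes in each aorta (points), with group mean and standard deviation in black, by treatment and days. Every Ltbp2 point under Ang II lies above all saline points of its own time, while Ltbp1 and Ltbp4 overlap saline at every time.

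After 14 days Ltbp2 was the only one of the 7 called, beside a background of 1.12% of genes called higher and 1.28% called lower. It stood at 0.50, 0.98, 1.30, 1.94 and 0.32 in Ang II aortas, against -0.76 to 0.32, median -0.48, in saline aortas. The lowest Ang II aorta and the highest saline aorta were 0.32 to 2 decimals, so the groups all but touched, and the change was 1.35 with a standard error of 0.327 (limma, adjusted p = 0.0247). It was not called without Ang II replicate 4 (1.11, adjusted p = 0.119), without Ang II replicate 3 (1.27, adjusted p = 0.0824) or without saline replicate 1 (1.26, adjusted p = 0.0739). The 2 scan days gave 1.60 and 1.13, neither called.

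At 14 days Tgfb1 stood at -0.10, 0.01, 0.16, 0.00 and -0.11 in Ang II aortas, against -0.63 to -0.14, median -0.31, in saline aortas. No Ang II aorta fell within the saline range. The log2 change of 0.33, with a standard error of 0.135, did not pass (limma, adjusted p = 0.184), and such groups without overlap were seen for 1.46% of genes on the higher side. The 5 other genes overlapped, with changes of 0.50 for Tgfb3, 0.41 for Tgfb2, 0.29 for Ltbp3, -0.08 for Ltbp4 and -0.46 for Ltbp1.

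After 28 days Ltbp2 was again the only call, beside 0.836% of genes called higher and 0.0643% called lower. Its Ang II aortas ran from 0.49 to 1.96 with a median of 1.45, against -0.14, -0.09, 0.01, -1.26 and -0.19 in saline aortas. The groups did not overlap, as for 1.04% of genes on the higher side, and the change was 1.67, or 3.18-fold, with a standard error of 0.327 (limma, adjusted p = 0.00741). Within the 2 scan days it was 1.71 and 1.53, with adjusted p of 0.138 and 0.0661.

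Tgfb1 spread widely among the Ang II aortas of 28 days, from -0.27 to 0.87 with a median of 0.03, against -0.29, -0.27, -0.22, -0.25 and -0.36 in saline aortas. Only Ang II replicate 2 reached into the saline range, and the change of 0.42 with a standard error of 0.135 was not called (limma, adjusted p = 0.123). Without that replicate it was 0.51 and called (adjusted p = 0.0374). Within the first scan day the change was 0.17 and within the second 0.67, where the highest array, Ang II replicate 5 at 0.87, was scanned.

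At 28 days 5 of the 7 genes differed in sign between scan days. Between the first and the second day the change was 1.02 and -0.50 for Tgfb2, 1.35 and -1.06 for Tgfb3, 0.88 and -0.15 for Ltbp3 and 0.69 and -1.20 for Ltbp4, none of them called. The split was widest for Ltbp1. Its Ang II aortas scanned on the first day held 0.91, 0.13 and 1.36 and those scanned on the second -1.08, -1.02 and -0.99, so that the pooled change of -0.55 was not called (limma, adjusted p = 0.657). Within the first scan day it was 1.09 (adjusted p = 0.535) and within the second -1.95 (adjusted p = 0.0131). Within the second, with 3 aortas in each group, 1468 genes were called in all, against 168 over all arrays. A scan day is the day the slide was read, and what else differed between these aortas was not tested.

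As the mean over 7, 14 and 28 days, 4 of 7 genes rose, beside a background of 15.6% of genes called higher and 11.6% called lower. Ltbp2 rose 3.36-fold (log2 change 1.75, standard error 0.193, limma, adjusted p = 1.18e-07) and Tgfb1 1.45-fold (0.53, standard error 0.0797, adjusted p = 1.18e-05). Tgfb2 rose by 0.73 and Ltbp3, by its brighter probe, by 0.56 on the log2 scale. The second Ltbp3 probe changed by 0.18 and was not called (limma over 27825 probes, of which 27% were called, adjusted p = 0.35). Ltbp2 was called within both scan days, at 1.76 and 1.69, as was Tgfb1, at 0.45 and 0.56. Tgfb2 was called within neither (0.94, adjusted p = 0.0519, and 0.59, adjusted p = 0.0997), and Ltbp3 within the first (0.69, adjusted p = 0.0163) but not the second (0.39, adjusted p = 0.258). With median centring in place of loess, Tgfb1 (0.35, adjusted p = 0.0722) and Tgfb2 (0.56, adjusted p = 0.0789) were not called.

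All 7 log2 changes were lower at 14 and 28 days than at 7 days over all arrays, the differences between times did not pass, and their direction depended on scan day. For the effect at 14 days less that at 7 days, 0 of 7 genes were called by limma and 3 had an unadjusted p under 0.05, beside 1.02% of genes called and 20.4% at that unadjusted level. The differences were -0.52 for Tgfb1, -1.18 for Tgfb2 and -0.78 for Ltbp3 in those 3. At 28 days less 7 days 0 of 7 were called, beside 2.65% of genes. An unadjusted p under 0.05 was found for 3 of 7, beside 19.5% of genes, again Tgfb1 (-0.42), Tgfb2 (-1.40) and Ltbp3 (-0.76). All these differences share the 7-day aortas. Within the first scan day, which held 3 of the 4 Ang II aortas of 7 days, the difference at 28 days was 0.14 for Tgfb2, 0.70 for Tgfb3, 1.03 for Ltbp1, 0.12 for Ltbp3 and 0.90 for Ltbp4, against -0.68 for Tgfb1 and -0.26 for Ltbp2. At 14 days it was 0.02 for Tgfb2 and 0.26 for Tgfb3 and Ltbp4 on that day, and negative for the others. Within the second scan day, with 1 Ang II aorta of 7 days, the difference at 28 days was -2.82 for Tgfb2, -3.43 for Ltbp1 and 0.01 for Tgfb1. Without Ang II 28 days replicate 5 the Tgfb1 difference at 28 days was -0.57 and called (adjusted p = 0.0348).

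The saline aortas did not change detectably over time. With limma 0 of 7 genes were called across the saline times, beside 0.503% of genes. An unadjusted p under 0.05 was found for 0 of 7, beside 12.7% of genes. Ltbp2 averaged -0.34 ± 0.547, -0.34 ± 0.426 and -0.33 ± 0.524 (SD, n = 6, 6 and 5) at 7, 14 and 28 days of saline. Tgfb1 averaged -0.44 ± 0.122, -0.34 ± 0.167 and -0.28 ± 0.0518 at the same times.

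**Figure D3:**
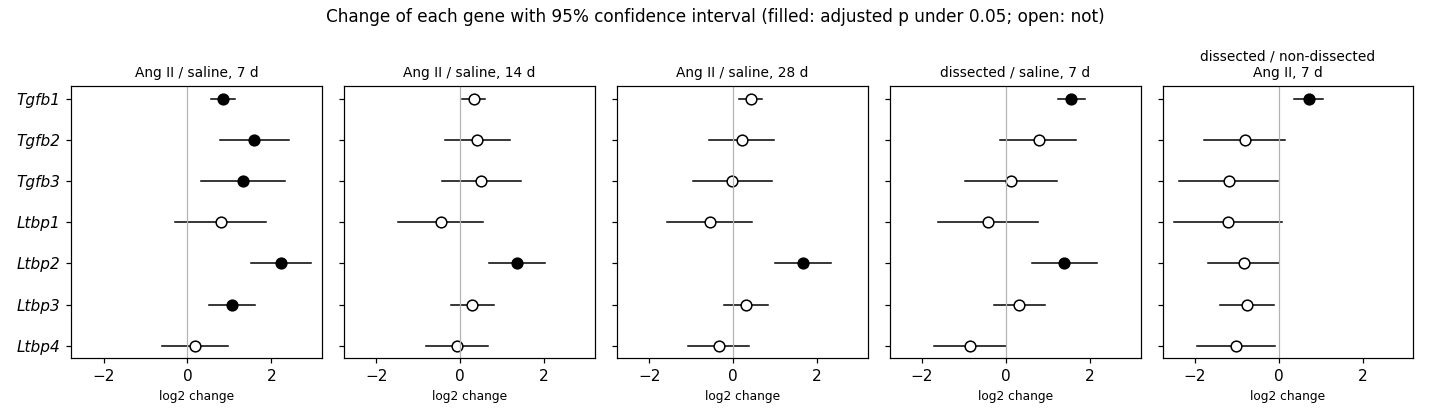
Log2 change of each gene (circles) with its 95% confidence interval (lines) in 5 comparisons, filled where the adjusted p was under 0.05. Ltbp2 is filled in every panel but the last, and Tgfb1 is the only filled circle between dissected and non-dissected aortas, at 0.72, while the other 6 lie between -1.22 and -0.76.

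Between aortas that had dissected at 7 days and saline, 2 of 7 genes were called, Tgfb1 and Ltbp2, both higher. Over all genes 36.5% were called, 18.9% higher and 17.6% lower, so this count does not exceed the share over all genes. With 3 dissected aortas, a missing call does not show that a gene was unchanged. The saline aortas are those set against non-dissected aortas above, so the comparisons share them. Tgfb1 rose 2.95-fold, and Ltbp2 rose 2.63-fold. Tgfb1 was measured at 1.35, 1.15 and 0.87 in the dissected aortas, against -0.64 to -0.31 in the 6 saline aortas, without overlap, as for 17.2% of genes on the higher side, and its change was 1.56 with a standard error of 0.158 (limma, adjusted p = 1.82e-08). Ltbp2 stood at 0.95, 1.68 and 0.53 in dissected aortas, against -1.21 to 0.41 in saline aortas, and its change was 1.39 with a standard error of 0.382 (limma, adjusted p = 0.00462). Without dissected replicate 2 the Ltbp2 change was 1.08 and not called (adjusted p = 0.0571). Within the second scan day, which held all dissected aortas, the changes were 1.65 for Tgfb1 and 1.69 for Ltbp2, both called. Tgfb2 was called there too (1.49, limma, adjusted p = 0.00273), among 5742 genes in all.

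Ltbp4 had its lowest group mean in the dissected aortas, 0.57 ± 0.78 (SD, n = 3), against 1.42 ± 0.67 (SD, n = 6) in saline. Its single values were 0.20, 1.47 and 0.04 in dissected aortas, so replicate 2 lay inside the saline range of 0.43 to 2.39 and the others below it. The change of -0.85 did not pass (limma, adjusted p = 0.113). It did pass without dissected replicate 2 (-1.30, adjusted p = 0.033), without saline replicate 5 (-1.05, adjusted p = 0.0473) and with the replicate number as a block (-1.09, adjusted p = 0.0488). It was smaller within the second scan day, which held all 3 dissected aortas (-0.35, adjusted p = 0.591), and without dissected Ang II replicate 3 (-0.59, adjusted p = 0.39).

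Set against the non-dissected Ang II aortas of the same 7 days, the dissected aortas were higher in Tgfb1 alone. The Tgfb1 change was 0.72, or 1.64-fold, with a standard error of 0.17 (limma, adjusted p = 0.00839), and the dissected range of 0.87 to 1.35 lay above the non-dissected range of 0.13 to 0.62, as for 11.8% of genes. This was 1 of 7 genes, beside 3.06% of genes called higher and 4.98% called lower. Without dissected replicate 1 it was 0.60 and not called (adjusted p = 0.0661), and within the second scan day, with 1 non-dissected aorta, it was 0.99 (adjusted p = 0.167).

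The other 6 genes all had lower means in dissected than in non-dissected aortas and none was called. Their changes ran from -0.76 for Ltbp3 and -0.81 for Tgfb2 to -1.19 for Tgfb3 and -1.22 for Ltbp1, with adjusted p between 0.148 and 0.335 (limma). Tgfb2 was at 0.87, 0.78 and 0.44 in dissected aortas, below all 4 non-dissected aortas, of which the lowest was 1.19. The groups did not overlap either for Tgfb3, Ltbp1 and Ltbp3, and 15.1% of all genes lay apart in that direction. In a fit on these 2 groups alone Tgfb2, Tgfb3, Ltbp1 and Ltbp3 were called lower and Tgfb1 higher. That fit called 2315 genes in all, higher or lower, against 1500 in the fit of all groups.

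The comparison with non-dissected aortas depended on how the arrays were centred. With each array centred on its median in place of loess, the median of all genes stood at -0.29 in this comparison, Tgfb1 at 0.11 (limma, adjusted p = 0.848) and Tgfb2, Tgfb3, Ltbp1, Ltbp3 and Ltbp4 were called lower, 0 higher and 5 lower in place of 1 and 0. Over all genes 1852 were called under this centring, against 1500 with loess. Relative to the median of all genes Tgfb1 was 0.40 higher and the other 6 were 0.90 to 1.5 lower. Against saline the median of all genes stood at -0.36 in dissected aortas under this centring, Tgfb1 remained called at 0.76 (adjusted p = 0.0215), Ltbp2 at 0.80 was not called (adjusted p = 0.127) and Ltbp4 was called lower at -1.5 (adjusted p = 0.00355).

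The order of the 7 groups by mean level differed between genes. For Tgfb1 it ran from dissected aortas (1.12 ± 0.242, n = 3) through Ang II at 7 days (0.41 ± 0.206, n = 4), 28 days (0.15 ± 0.406, n = 6) and 14 days (-0.01 ± 0.108, n = 5) to the 3 saline groups. Neighbours in that order overlapped except the dissected against the 7-day aortas and the 14-day Ang II aortas against 28-day saline. For Ltbp2 the order was Ang II at 7 days (1.90 ± 0.523), 28 days (1.34 ± 0.646), dissected (1.05 ± 0.581) and 14 days (1.01 ± 0.646), each overlapping the next. The 14-day aortas, from 0.32, lay above the 28-day saline aortas that followed, while saline aortas of 7 days reached 0.41. Tgfb2 was highest under 7 days of Ang II (1.51 ± 0.248), apart from the dissected aortas that followed (0.70 ± 0.227), and every later neighbour overlapped. For Tgfb3, Ltbp1, Ltbp3 and Ltbp4 all neighbouring groups overlapped.

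Among aortas of the same group, Tgfb1 varied on its own and the other 6 varied together. Each aorta's deviation from its group mean was taken, and over the 35 arrays Pearson's r between the 15 pairs without Tgfb1 ran from 0.48 to 0.88 with a median of 0.76. The highest was between Tgfb2 and Ltbp1. In the 6 pairs with Tgfb1 it ran from -0.11 to 0.29 with a median of 0.09. These correlations describe values that share an array and a tissue piece, and they carry no test. The spread within groups was 0.219 log2 units for Tgfb1 and 0.432 to 0.857 for the others, widest for Ltbp1.

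**Figure D4:**
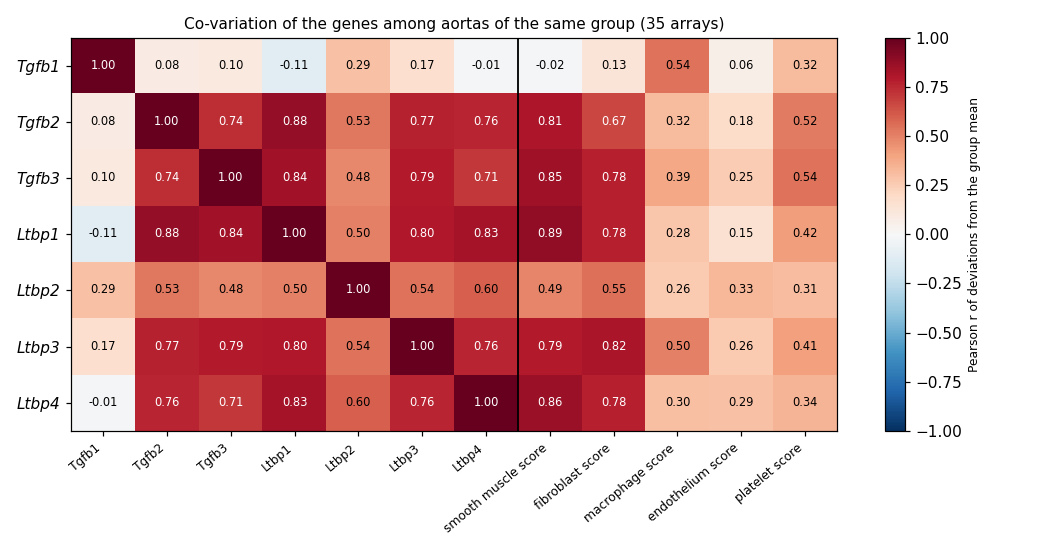
Pearson's r, over 35 arrays, of each gene's deviations from its group mean with those of the other genes (left of the line) and of 5 cell type marker scores (right of the line). The row of Tgfb1 stays between -0.11 and 0.29 against the other genes and reaches 0.54 with the macrophage score, while the other rows reach 0.49 to 0.89 with the smooth muscle score. Scan day was not taken out of the deviations.

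The same deviations were set beside marker scores, the mean of a cell type's marker genes in each aorta. Those of Tgfb2, Tgfb3, Ltbp1, Ltbp3 and Ltbp4 had r of 0.79 to 0.89 with smooth muscle markers, Ltbp2 had 0.49 and Tgfb1 -0.02. With fibroblast markers these 5 had 0.67 to 0.82, Ltbp2 0.55 and Tgfb1 0.13. Fibroblast and smooth muscle values were close for Ltbp2 (0.55 and 0.49) and Ltbp3 (0.82 and 0.79), and their difference was not tested. With macrophage markers Tgfb1 had 0.54, and the other 6 had 0.26 to 0.50. The part of cell composition in the changes of these genes was not tested.

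Marker levels moved between the groups as well. Of 13 macrophage markers 12 rose at 7 days of Ang II, 2 at 14 days and 6 at 28 days, and 13 of 13 rose in dissected aortas against saline. The macrophage score ran from 0.65 to 1.34 in Ang II aortas at 7 days and 0.97 to 1.85 in dissected aortas, against -1.75 to -0.77 in 7-day saline aortas. Of 8 platelet markers 4 rose in dissected aortas against saline and 3 against non-dissected aortas, with a score of 0.83 to 1.86 in dissected, -0.65 to 0.18 in non-dissected and -0.85 to 0.61 in saline aortas, while the platelet receptor gene Gp1ba was not well above background on any dissected or non-dissected array of 7 days. The platelet score also reached 2.26 among 14-day saline aortas, above every dissected aorta. Of 11 fibroblast markers 8 rose at 7 days of Ang II and 0 in dissected aortas against saline. Smooth muscle markers, 1 of 10 higher at 7 days of Ang II and 1 of 10 lower in dissected aortas, had scores of 0.05 to 0.59 in Ang II and -1.11 to -0.26 in dissected aortas, against -1.07 to 1.10 in saline aortas. Of 8 kidney tubule markers 4 were lower at 14 days, where their score ran from -0.50 to -0.26 in Ang II aortas, against -0.37 to 2.22 in saline aortas. With neighbouring tissue scores as covariates the Ltbp2 change of 14 days was 1.66, against 1.35 without them, and not called (limma, adjusted p = 0.0733). That fit called 63 genes in all at 14 days, against 449 without the scores. Of 7 hepatocyte markers 2 were lower in dissected aortas than in saline aortas of 7 days, with scores of -1.33 to -0.91 against -1.39 to 1.75.

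**Figure D5:**
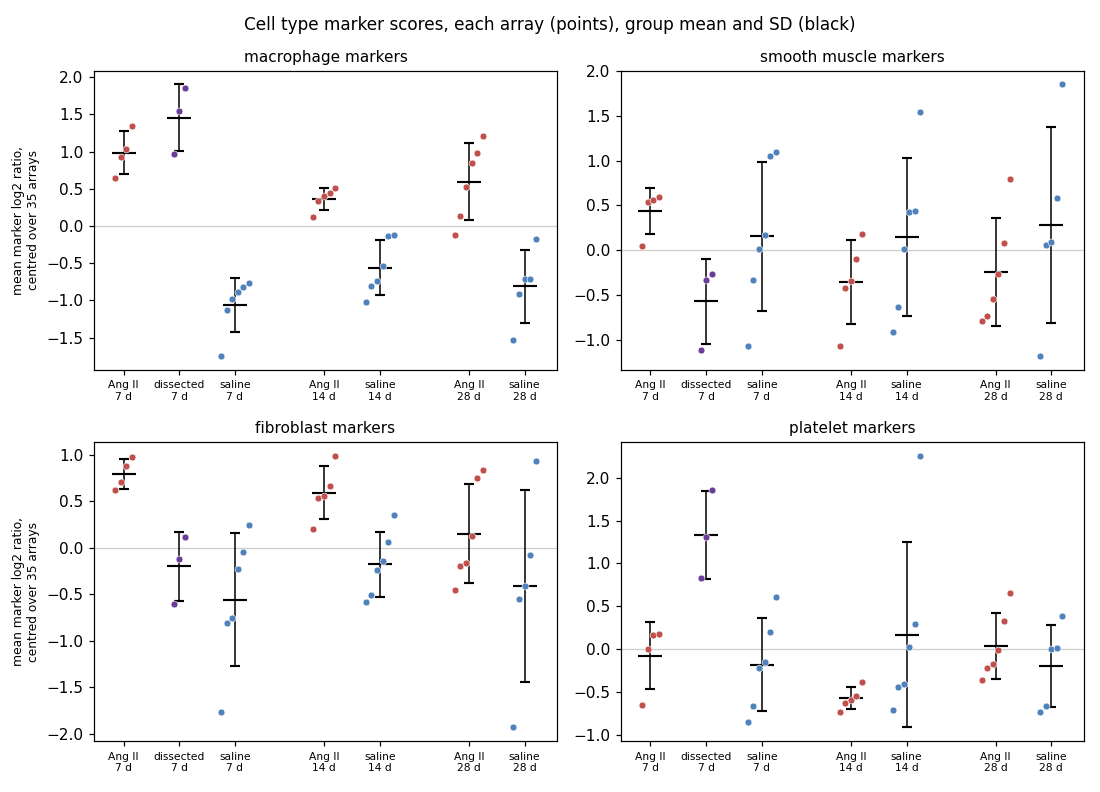
Mean log2 ratio of the markers of 4 cell types in each aorta, centred over 35 arrays (points), with group mean and standard deviation in black. Macrophage scores lie above 7-day saline in all 7-day Ang II aortas. Platelet scores of 0.83 to 1.86 set the dissected aortas apart from the other 7-day groups, while those of 14-day saline aortas reach 2.26.

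The genes whose values over the 35 arrays were most like each called gene differed between the ligands. For Tgfb1 they were Tnfrsf1b, a receptor for tumour necrosis factor (Pearson's r = 0.957), Naip5, a sensor of bacterial flagellin in macrophages (0.941), and Lrrc25 (0.94). For Tgfb2 they included Pkd1, the polycystin gene (0.915), and Lrig3 (0.911). For Tgfb3 they were the stress response gene Nupr1 (0.894), Smo, the hedgehog signal transducer (0.892), and the matricellular gene Postn (0.89). For Ltbp2 they included Col8a1 (0.947) and Col8a2 (0.91), the chains of type VIII collagen. Ltbp3 was most like the collagen prolyl hydroxylation genes Crtap (0.919) and P3h3 (0.904) and the elastic fibre crosslinking gene Loxl1 (0.916). These arrays include the treatment groups, so the values describe a shared pattern and have no test.

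The genes that surround the latent complex were read from lists of known roles, to be set beside the shares of all genes called above. Of 12 matrix partners 9 rose at 7 days of Ang II, with a median log2 change of 1.55 against 0 over all genes. Among these 12, Fbn2 and Fbln5 were not well above background on any 7-day saline array. Fbln5 was not so on any 14-day saline or dissected array either. The largest rises were those of Fbn1, the fibrillin to which binding proteins anchor (3.08, limma, adjusted p = 2.34e-05), Mfap5, a microfibril glycoprotein (2.58), and Efemp2, which encodes fibulin 4 (2.30). At 14 days 2 of 12 rose, Mfap2 (1.76) and Fbn2 (1.64), and at 28 days 0 of 12 did. In dissected aortas against saline 4 of 12 rose, among them Efemp2 (2.73) and Mfap2 (1.97). Fbn2 was called too, and it was not well above background on any 7-day saline array. Against non-dissected aortas Fbn1 was 2.78 log2 units lower in dissected aortas (log2 change -2.78, adjusted p = 0.00243), as was Adamtsl2 (-1.74), a matrix protein that binds fibrillin 1 and LTBP1.

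Of 15 activators of latent TGF-beta that could be tested, 7 rose at 7 days of Ang II, with a median log2 change of 0.51. They included Mmp14, a membrane metalloproteinase (3.19, limma, adjusted p = 1.11e-07), Thbs1, whose product thrombospondin 1 binds the propeptide (2.05), and Bmp1, a protease that cleaves LTBP1 (2.00). At 14 days 3 rose, Mmp14 (1.70), Mmp2 (1.60) and Bmp1 (1.47), and at 28 days Thbs1 alone (1.59). In dissected aortas against saline 6 rose, with Mmp14 (3.63), Mmp9 (2.18) and Bmp1 (2.15) the largest, and 2 fell, the integrin chains Itgav (-1.44) and Itgb1 (-1.13). Against non-dissected aortas the gelatinase gene Mmp9 was higher (2.05) and Itgav (-1.65) and Itgb1 (-1.37) were lower.

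Of 12 receptors and Smads 1 rose at 7 days of Ang II, Eng, an accessory receptor of endothelium (0.81, limma, adjusted p = 0.012), and at 14 and 28 days 0 of 12 were called. As the mean of 3 times 1 was called higher and 2 lower. In dissected aortas against saline Eng rose (0.74) and 4 fell, among them Smurf2, a ubiquitin ligase for the receptors (-1.17), and the type I receptor gene Acvrl1 (-1.0). Against non-dissected aortas 4 of 12 were lower in dissected aortas, with Acvrl1 at -1.24, Smurf2 at -0.96 and Smad4, the shared Smad, at -0.81 the largest.

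Of 17 response genes, known to be induced by TGF-beta in culture, 8 rose at 7 days of Ang II, with a median log2 change of 0.95. They included Col1a1, a chain of type I collagen (4.59, limma, adjusted p = 8e-06), and Lox, which crosslinks collagen and elastin (3.56). At 14 days Col1a1 alone rose (3.01) and at 28 days 0 of 17 did. In dissected aortas against saline 4 rose, among them Col1a1 (3.48) and Tgfbi (1.66). Against non-dissected aortas 2 were lower in dissected aortas, Ccn2, which encodes connective tissue growth factor (-2.79), and Lox (-2.62).

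Of 10 binders and antagonists 5 rose at 7 days of Ang II, with a median of 0.98, the largest being Fmod (2.52) and Bgn (1.51), which encode small matrix proteoglycans, and Cd109, a membrane co-receptor (2.31). At 14 and 28 days 0 of 10 were called. In dissected aortas against saline 1 fell, Asb2 (-1.41), a ubiquitin ligase subunit that is not itself a binder of the ligand. Bgn was lower in dissected than in non-dissected aortas (-2.41, limma, adjusted p = 0.0244).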

How the data were processed

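The authors deposited scanner files with the fluorescence intensity of each spot in both channels, read with version 9.5.3.1 of Agilent Feature Extraction (submitters' processing notes), and with a log10 ratio that was read only to check direction, per the file headers. In the series table the authors deposited, values are log2 ratios, Cy5 (aorta) over Cy3 (reference). Its slope on the log10 ratio was 3.32 to 3.34, which fixes its log base and direction, its array medians were -0.0675 to 0.109, and its further normalization is not given in the sources used here. Dyes were not swapped, per the labels.

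From the intensities, background was corrected with normexp (offset 50) and ratios were normalized within arrays by loess in limma 3.58.1 under R 4.3.3. Of 41174 probes, 27825 were well above background in the aorta channel on at least 3 arrays. The probe with the highest mean intensity stood for each of 18671 genes. One model of 7 group means was fitted to all 35 arrays (28 residual degrees of freedom), with Benjamini-Hochberg adjustment over all genes. It was checked on simulated data. Names came from RefSeq for 24375 probes by accession, 6301 by current symbol and 2426 by older symbol, and 8072 kept the file's name. Of 17 listed activators 2, Itgb6 and Lrrc32, did not pass the filter.

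The genes and lists were chosen with earlier results of these data known. All 7 genes are named, with up to the 3 called genes of largest change per pathway list and comparison, and the 3 genes most correlated with each called gene. Some genes that this rule names are not reported here. Lists of endothelium, fat, kidney tubule, adrenal and sympathetic ganglion, hepatocyte and lymphocyte markers were read as well. At 7 days of Ang II the called counts were 1 of 10 higher, 1 of 10 lower, 0 of 8, 5 of 9 lower, 0 of 7 and 0 of 10 in that order.

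Replicate numbers come from the labels, which tie no number to a shared litter or day, so the fit had no block. Same-numbered dissected and saline aortas deviated together (correlation 0.13 to 0.498 in 3 pairs), and the block fit is given there. At 14 days Ang II and saline pairs ran from 0.0408 to 0.594, with 4 of 5 over 0.1, and Ltbp2 was still called in the block fit. Pairs ran from -0.0536 to 0.326 at 7 days and -0.397 to 0.155 at 28 days. Between dissected and non-dissected aortas they ran from -0.209 to 0.284. The number of arrays limits precision. The highest correlation between any 2 arrays was 0.9713, and no array was taken for a repeat of another. The labels number the aortas without naming animals, and p-values rest on the spread among them.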

Additional observations from a re-analysis of the deposited data

Results flagged for a closer look

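Among 42 sets of 4 to 6 arrays, each gene in each group, 2 held an array that stood apart from the rest by Dixon's criterion, and chance alone gives about 1 in 20. For Ltbp1, Ang II 7 days replicate 4 stood at 0.92, above the next array at 0.68, in a group whose range was narrow. For Ltbp2, saline 28 days replicate 4 stood at -1.26, below the next array at -0.19. No cause was tested for either value.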

How the results depend on the processing

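Over 938 values of single genes under other settings, 41 calls were lost, 24 were gained and 0 called values turned sign, and with arrays left out as well 56 of 1792 values that were not called changed sign. Of 7 genes called in the 9 comparisons, counts moved as follows. The count of all genes called moved with the setting too. At 7 days it was 5070 in the main fit, 1561 under median centring, 878 under scale normalization and 2744 within scan day 1. It was 4525 with no filter on dim probes, 4817 with scan day as a block, 5236 with only the groups compared and 2998 with neighbouring tissue scores. Scan day 2 held 1 non-dissected Ang II aorta of 7 days, so counts that use it are not given here. Ang II over saline at 7 days had 5 in the main fit, 3 under median centring and 1 under scale normalization. It had 2 within scan day 1. It had 4, without Tgfb3, with no filter on dim probes, scan day as a block, only the groups compared or neighbouring tissue scores. At 14 days it had 0 under median centring, scale normalization, within either scan day, with only the groups compared and with neighbouring tissue scores as covariates, in place of 1. All genes called there numbered 449 in the main fit, 121 under median centring and 6 under scale normalization. They numbered 19 within scan day 1 and 1 within scan day 2. They numbered 118 with only the groups compared and 63 with neighbouring tissue scores. At 28 days it had 3 under scale normalization, 2 without background subtraction and with the authors' series table, and 0 within scan day 1, with only the groups compared and with neighbouring tissue scores. All genes called at 28 days numbered 168 in the main fit, 4114 under scale normalization and 204 without background subtraction. They numbered 427 with the authors' series table, 11 within scan day 1, 0 with only the groups compared and 48 with neighbouring tissue scores. The mean of 3 times had 2 under median centring and under scale normalization, in place of 4. Dissected over saline had 1 under scale normalization and 3 with array weights (Ltbp4 lower added) and, with Tgfb2 added, within scan day 2 and with neighbouring tissue scores, in place of 2. Dissected over non-dissected had 5 under median centring and with only the groups compared, and 4 with array weights. It had 0 under scale normalization and with neighbouring tissue scores. Saline across time had 1 under scale normalization. Leaving out 1 array at a time gave 4 to 5 at 7 days, 0 to 1 at 14 days, 1 to 2 at 28 days, 4 to 5 for the mean, 2 to 3 for dissected over saline, 0 to 1 over non-dissected, 0 to 0 and 0 to 1 for the differences between times and 0 to 0 for saline. With the replicate number as a block the counts were 4, 1, 1, 4, 3 and 1, where Tgfb3 at 7 days was lost (1.16, adjusted p = 0.0949) and Ltbp4 was gained in dissected aortas (-1.09, adjusted p = 0.0488). Over all genes, the mean of 3 times had 5088 calls in the main fit, 2214 under median centring and 3345 under scale normalization. Dissected over saline had 6819, with 2083 under scale normalization, 9211 with array weights, 5742 within scan day 2 and 6414 with neighbouring tissue scores. Dissected over non-dissected had 1500, with 1852 under median centring, 2315 with only the groups compared, 3918 with array weights and 79 under scale normalization. Saline across time had 94, and 2537 under scale normalization. Fits on fewer groups or 1 scan day hold fewer arrays, and for the other settings the cause was not tested. Signals near background limit the second Ltbp1 probe.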
